A study of Oryctolagus cuniculus with 12 samples.

Results

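The genes of NF-κB signalling examined here were a ligand (TNF), 4 Rel subunit genes (NFKB1, NFKB2, REL and RELB), 3 genes of IκB family proteins (NFKBIA, NFKBIZ and BCL3) and 2 genes of inhibitors that act above them (TNFAIP3 and IRAK3). They were chosen by name, with earlier results of these data known, and all 10 were found among the 20566 genes measured. RNA came from conjunctiva of female Japanese white rabbits aged 12–14 weeks. Right eyes underwent trabeculectomy (TL), a glaucoma operation that leads aqueous humor under the conjunctiva into a bleb, with the antimetabolite mitomycin C. They then received a conjunctival injection of the glucocorticoid betamethasone and an ointment of erythromycin and colistin. Bleb conjunctiva was taken at 3 hours (TL-3h), 3 days (TL-3d) and 14 days (TL-14d) after surgery, and conjunctiva of left eyes without surgery was the control. Each of the 4 groups had 3 libraries. The operation, the mitomycin C and the drugs given afterwards were shared by all TL libraries and by no control, so their parts cannot be told apart. The study's text speaks of separate eyes for the expression values after surgery, and a rabbit had only its right eye operated on, so the libraries of a TL group came from separate rabbits. Which rabbits gave the control eyes, and at which time, was not stated.

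NF-κB is a family of dimeric transcription factors that switch on cytokine, chemokine and survival genes after injury, infection or cytokine signals. In resting cells IκB proteins hold the dimers in the cytoplasm until the IκB kinase complex marks the inhibitors for destruction. Freed dimers also switch on genes of their own inhibitors, such as NFKBIA and TNFAIP3, and this negative feedback limits the response. RELB pairs with the NFKB2 product in the slower noncanonical branch of the pathway. At the surface of the eye, inflammation of the conjunctiva bears on scarring of the bleb.

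The libraries held 27111348 to 38591425 estimated counts each. Levels are given as CPM, counts scaled to a common depth, on library sizes adjusted by the trimmed mean of M-values (TMM), and a floor of 3 counts stood at 0.0712 to 0.124 CPM. Changes were tested with edgeR's quasi-likelihood test over all 12 libraries and 14835 genes. Every adjusted p (Benjamini-Hochberg over those genes) comes from that fit unless another is named, and a gene was called at an adjusted p of at most 0.05. An exact permutation test of 3 libraries against 3 cannot go below p = 0.1, so none was used for single genes. Several libraries stood apart. Control replicate 3 held 1638 CPM of 6 glucocorticoid-induced genes, against 387 and 291 CPM in the other controls, and 631 CPM of 8 macrophage markers against 81.4 and 163 CPM. TL-14d replicate 2 had the highest TNF level of all libraries and 1992 CPM of the protease gene MMP9. The other 8 listed neutrophil markers summed to 85.3 CPM in it, beside 4.77 and 111 CPM in TL-14d replicates 1 and 3. Skeletal muscle markers, 3 of 5 listed, summed to 178 CPM in control replicate 2 and 265 CPM in TL-3d replicate 3, and to at most 6.80 CPM in the other 10 libraries. The part of this tissue in the levels of both libraries was not tested. TL-14d replicate 1 was the TL-14d library nearest to the controls for TNF and RELB, and without it 716 genes in place of 0 were called at 14 days. Conjunctival epithelium markers were present in every group, with a summed level of 5230 to 21986 CPM over 9 genes. In whole tissue, fewer cells of a type and less RNA per cell cannot be told apart.

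On the authors' OryCun2.0 gene table, REL lies on chromosome 2 (125303644–125350293, minus strand) and IRAK3 on chromosome 4 (45035284–45100237, plus strand). Chromosome 12 carries TNF (20399432–20402011, plus) and TNFAIP3 (128329717–128346079, plus). NFKBIZ is on chromosome 14 (118679073–118690066, minus), NFKB1 on chromosome 15 (47002639–47236690, minus), NFKBIA on chromosome 17 (55106444–55109627, minus) and NFKB2 on chromosome 18 (50403701–50412759, plus). BCL3 and RELB share an unplaced contig, where BCL3 spans 15517–23943 and RELB 175820–186371, both on the plus strand and 151876 bases apart. No other gene of the table overlapped any of the 10.

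At 3 hours, 9 of the 10 genes were higher than in control (adjusted p at most 0.05), and none was lower. Over all genes tested, 23.2% were called higher and 22.2% lower in the same comparison. With library size alone 6 of the 10 were called higher, beside 1889 of 14835 genes. The median log2 fold change of the 10 genes was 1.88, beside 0.02 over all genes. In each of the 10, every TL-3h library lay above every control library, which held for 28.9% of all genes. The 10 were chosen with earlier results of these data known, so their counts beside these shares are a description. The TNFAIP3 gene changed 6.89-fold and NFKB2 6.07-fold, whereas REL changed 1.78-fold and NFKBIZ 1.81-fold.

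**Figure D1:**
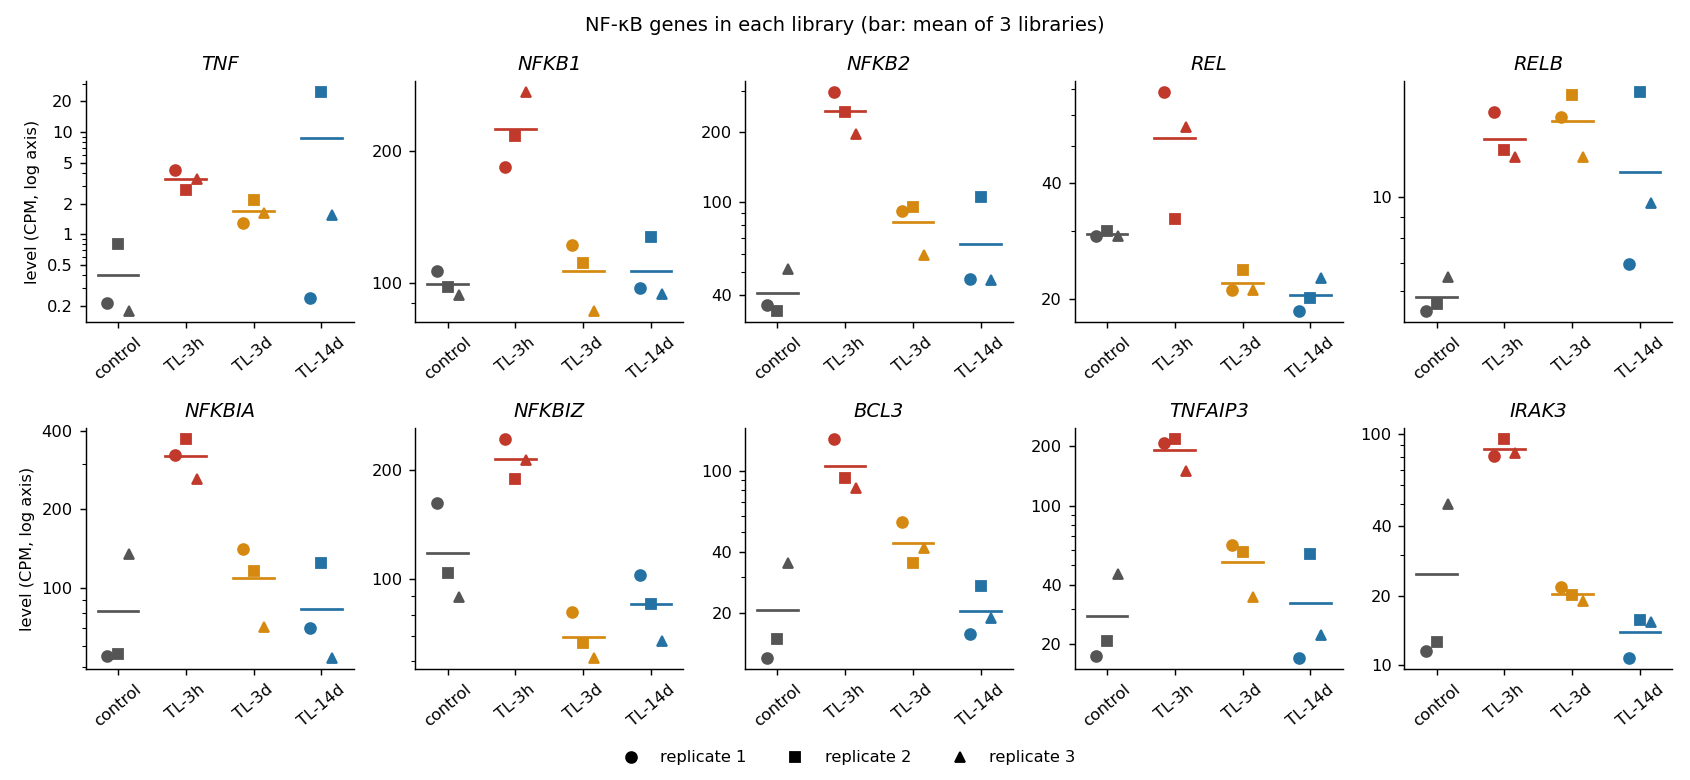
Level of each of the 10 genes in each library, in CPM on a log axis that differs between panels, by group on the x axis; symbols mark replicates 1 to 3 and bars the mean of 3 libraries. All TL-3h points lie above all control points in every panel, control replicate 3 is the highest control for NFKBIA, BCL3, TNFAIP3 and IRAK3, and TL-14d replicate 2 is the highest TL-14d library for TNF at 24.8 CPM.

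TNF encodes a cytokine that both activates NF-κB and is induced by it. Its level in control replicates 1 to 3 was 0.214, 0.800 and 0.176 CPM, from 9, 32 and 7 counts. In TL-3h it was 4.27, 2.74 and 3.47 CPM, and in TL-3d 1.30, 2.15 and 1.62 CPM. Every TL-3h and TL-3d library was thus above every control. In TL-14d the levels were 0.235, 24.8 and 1.53 CPM, from 7, 912 and 47 counts, so that replicate 1 lay within the control range and replicate 2 above all other libraries. Despite a log2 fold change of 3.13 ± 1.30 (SE) at 3 hours, TNF did not pass the threshold (adjusted p = 0.0746, n = 3 per group, edgeR). It passed when TL-14d replicate 1 or TL-14d replicate 2 was left out (adjusted p = 0.0210 and 0.00885, edgeR) and under the DESeq2 test (0.0164). At 3 days the log2 fold change was 2.08 ± 1.27 (adjusted p = 0.259) and at 14 days 4.47 ± 1.37 (adjusted p = 0.360). Without TL-14d replicate 2 the 14-day value was 1.15, and without TL-14d replicate 1 it was 5.04 (adjusted p = 0.0319, edgeR).

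NFKB1 encodes p105, the precursor of the p50 subunit. It stood at 107, 98.1 and 94.2 CPM in control and at 184, 217 and 273 CPM in TL-3h. Levels in TL-3d were 122, 111 and 86.3 CPM, and in TL-14d 97.5, 128 and 94.5 CPM. NFKB1 rose at 3 hours (log2 fold change 1.17 ± 0.19, adjusted p = 0.000836), with every library above control. The mean was then 106 ± 18.3 CPM (SD, n = 3) at 3 days, beside 99.7 ± 6.52 CPM in control, and the ranges overlapped. The log2 fold change at 3 days was 0.09 ± 0.19 (adjusted p = 0.747).

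NFKB2 encodes p100, which is both an IκB-like inhibitor and the precursor of p52. The control libraries had 36.0, 34.0 and 51.6 CPM, and the TL-3h libraries 298, 244 and 196 CPM. This was the largest change among the Rel subunit genes, at a log2 fold change of 2.60 ± 0.36 (adjusted p = 0.000358). In TL-3d the levels were 92.1, 95.3 and 59.3 CPM, still above every control library. That difference of 1.02 ± 0.35 did not pass the threshold (adjusted p = 0.0652), though it did under the DESeq2 test (0.030) and without TL-14d replicate 2 (0.0211, edgeR). In TL-14d replicate 2 stood at 106 CPM, whereas replicates 1 and 3 stood at 46.7 and 46.2 CPM, within the control range.

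REL encodes c-Rel, a subunit best known in lymphocytes and myeloid cells. Control libraries lay close together at 29.1, 29.9 and 29.1 CPM. The TL-3h libraries had 68.9, 32.2 and 55.8 CPM, so that replicate 2 was just above the controls. The log2 fold change was 0.83 ± 0.23 (adjusted p = 0.0132). Without TL-3h replicate 1 or TL-3h replicate 3 the adjusted p was 0.0691 or 0.0518 (edgeR), and the change no longer passed. Later, REL lay below every control library in all operated eyes, at 21.1, 23.7 and 21.0 CPM in TL-3d and 18.5, 20.1 and 22.6 CPM in TL-14d. Neither difference passed the threshold, with log2 fold changes of -0.42 ± 0.23 (adjusted p = 0.204) and -0.53 ± 0.23 (adjusted p = 0.474). The 3-day difference passed without TL-3h replicate 2 (adjusted p = 0.0464, edgeR).

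RELB encodes the subunit that partners p52 or p50. It was measured at 5.39, 5.60 and 6.49 CPM in control, 15.8, 12.9 and 12.4 CPM in TL-3h, and 15.4, 17.4 and 12.5 CPM in TL-3d. It was called higher at both times, with log2 fold changes of 1.23 ± 0.31 (adjusted p = 0.0083) and 1.37 ± 0.31 (adjusted p = 0.0192). In TL-14d the levels were 6.96, 17.7 and 9.67 CPM, all above the controls, with a log2 fold change of 0.97 ± 0.31 (adjusted p = 0.370). RELB passed at 14 days when TL-14d replicate 1 was left out (adjusted p = 0.0354, edgeR). The 3-day call was lost without control replicate 1, control replicate 2, TL-3d replicate 1 or TL-3d replicate 2, with adjusted p from 0.0627 to 0.072 and a log2 fold change of 1.26 to 1.36.

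NFKBIA encodes IκBα, the inhibitor that is degraded first and resynthesised after activation. Its control levels were 54.8, 56.0 and 135 CPM, and its TL-3h levels 324, 372 and 263 CPM. TL-3d libraries had 141, 116 and 70.9 CPM, and TL-14d libraries 70.5, 125 and 53.7 CPM, both overlapping control. At 3 hours the log2 fold change was 1.96 ± 0.44 (adjusted p = 0.00468), and without control replicate 3 it was 2.47. At 3 and 14 days it was 0.42 ± 0.42 (adjusted p = 0.504) and 0.02 ± 0.42 (adjusted p = 0.989).

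NFKBIZ encodes IκBζ, a nuclear IκB protein that acts as a coactivator of a subset of targets. Controls had 162, 104 and 89.3 CPM, and TL-3h libraries 242, 188 and 213 CPM (log2 fold change 0.86 ± 0.24, adjusted p = 0.0147). This call was lost without control replicate 2, control replicate 3 or TL-3h replicate 1 (adjusted p = 0.0599, 0.0653 and 0.0675, edgeR). By 3 days the levels of 81.5, 67.0 and 60.8 CPM lay below every control library. The log2 fold change was -0.76 ± 0.24 (adjusted p = 0.0523), and it passed without control replicate 3 (0.0348) or TL-14d replicate 1 (0.0394, edgeR), under the DESeq2 test (0.0201) and with a filter of at least 1 CPM in 3 libraries (0.0491, edgeR). The TL-14d levels of 103, 85.6 and 67.8 CPM overlapped control.

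BCL3 encodes a nuclear IκB protein that binds p50 and p52 dimers. It rose from 12.1, 15.1 and 35.4 CPM in control to 142, 91.7 and 81.9 CPM in TL-3h (log2 fold change 2.34 ± 0.42, adjusted p = 0.00147). TL-3d libraries, at 55.8, 35.5 and 41.9 CPM, remained above the controls, by a narrow gap to control replicate 3. The difference of 1.09 ± 0.41 did not pass (adjusted p = 0.0841), though it did under the DESeq2 test (0.0428), and without control replicate 3 it was 1.70 (adjusted p = 0.0204, edgeR). In TL-14d the levels were 15.8, 27.2 and 19.0 CPM, within the control range.

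TNFAIP3 encodes A20, a ubiquitin-editing enzyme that shuts down signalling from TNF and Toll-like receptors. The control levels were 17.4, 20.7 and 45.3 CPM, and the TL-3h levels 207, 217 and 150 CPM. With a log2 fold change of 2.79 ± 0.52 (adjusted p = 0.0018) it was the largest change called among the 10 genes. TL-3d libraries had 63.2, 58.3 and 34.5 CPM, with replicate 3 inside the control range (log2 fold change 0.90 ± 0.49, adjusted p = 0.208). TL-14d replicate 2 had 57.1 CPM, and replicates 1 and 3 had 16.9 and 22.3 CPM. A single transcript of 4312 bases, of 4 listed for the gene, held 59.3% to 87.0% of the TNFAIP3 counts in the 12 libraries.

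IRAK3 encodes IRAK-M, a kinase-like protein that restrains Toll-like and interleukin-1 receptor signalling. It was at 11.6, 12.7 and 50.0 CPM in control and at 80.2, 95.2 and 82.4 CPM in TL-3h. The log2 fold change was 1.80 ± 0.48 (adjusted p = 0.0123), and 2.77 without control replicate 3. In TL-3d it had 21.8, 20.1 and 18.9 CPM, which lay between control replicate 3 and the other controls. The 3-day direction rested on that library, since the log2 fold change was -0.29 ± 0.47 with it (adjusted p = 0.697) and 0.73 without it (adjusted p = 0.0341, edgeR). In TL-14d the levels were 10.7, 15.7 and 15.4 CPM, and the log2 fold change of -0.83 ± 0.48 (adjusted p = 0.575) was 0.19 without control replicate 3. The longer of 2 IRAK3 transcripts, 2790 bases, held 54.4% to 95.2% of the counts.

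Control replicate 3 was higher than the other controls for several of these inhibitors. It had 4.13 times the mean of the other controls for IRAK3, 2.61 times for BCL3, 2.43 times for NFKBIA and 2.37 times for TNFAIP3. NFKBIZ ran the other way at 0.671 times, and TNF stood at 0.346 times. The Rel subunit genes lay between, with 1.47 times for NFKB2, 1.18 times for RELB, 0.987 times for REL and 0.919 times for NFKB1. The same library held the highest glucocorticoid-induced sum of all 12, beside 1222 to 1352 CPM in TL-3h, 243 to 289 CPM in TL-3d and 246 to 567 CPM in TL-14d. The part of that signal, and of the macrophage and neutrophil markers, in the levels of control replicate 3 was not tested.

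**Figure D2:**
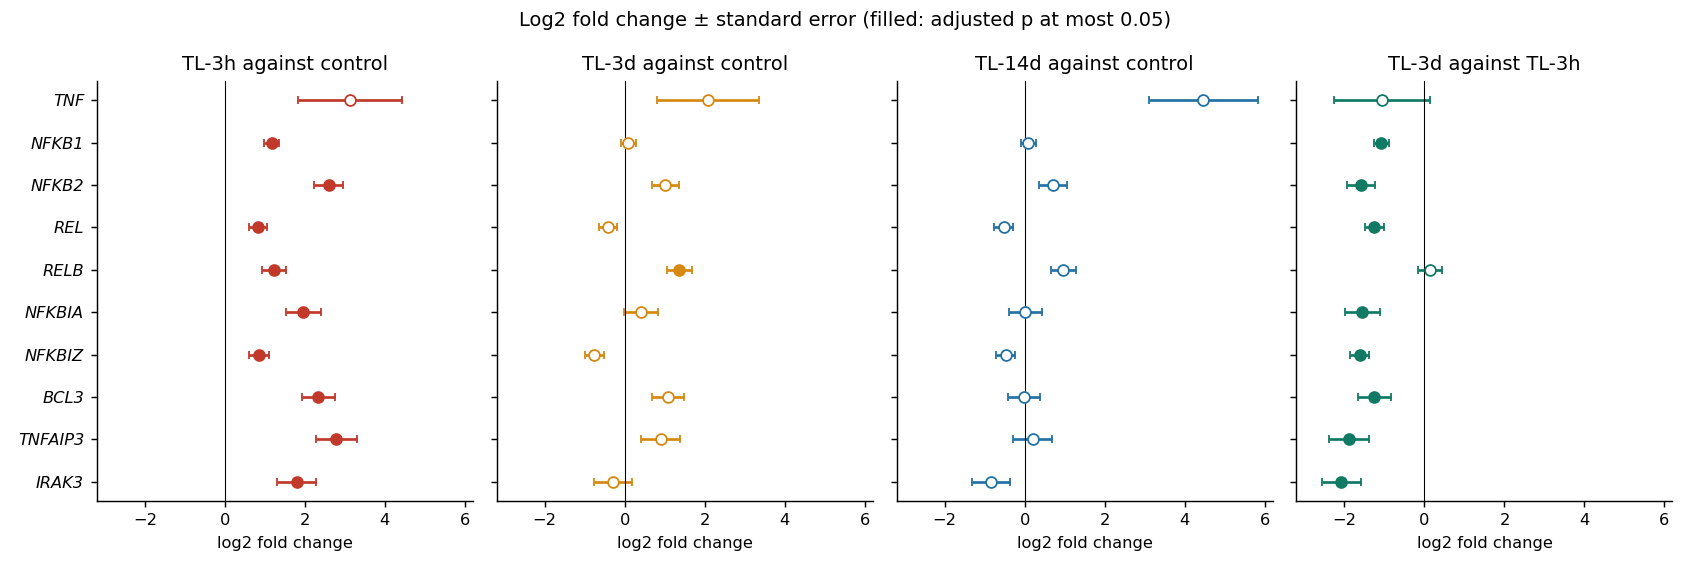
Log2 fold change (x axis) of each gene (rows) in 4 comparisons, with standard errors as bars and filled points for an adjusted p of at most 0.05 (edgeR, 3 libraries per group). Filled points number 9 at 3 hours, 1 (RELB) at 3 days, 0 at 14 days, and 8 for TL-3d against TL-3h, all of the last on the lower side.

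At 3 days, RELB was the 1 gene of the 10 called against control, and none was called lower. Over all genes 10.6% were called higher and 7% lower. The median log2 fold change of the 10 was 0.66, beside 0.00 over all genes. TNF, NFKB2, RELB and BCL3 had every TL-3d library above every control, a pattern seen in 23.8% of all genes. REL and NFKBIZ had every library below, as had 21.7% of all genes. The log2 fold change was above 0 in 7 of the 10. Without control replicate 3 it was above 0 in 8, with a median of 1.09. The number of calls ranged from 0 to 4 when 1 library was left out, while the share of all genes called ranged from 2.37% to 25.0%. It was 0 without control replicate 1, control replicate 2, TL-3d replicate 1 or TL-3d replicate 2, 2 without TL-3h replicate 2, TL-14d replicate 1 or TL-14d replicate 2, and 4 without control replicate 3. The DESeq2 test called 4, NFKB2, RELB and BCL3 higher and NFKBIZ lower, beside 4439 of 15903 genes. A fit of only the 6 libraries compared called 3, NFKB2 and RELB higher and REL lower, beside 3263 of 14417 genes.

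TL-3d was also compared directly with TL-3h, a comparison that uses no control library and shares its libraries with those above. Of the 10 genes, 8 were lower at 3 days, against 19% of all genes, and the median log2 difference was -1.40, beside -0.05 over all genes. With library size alone 6 were called lower. Every TL-3d library lay below every TL-3h library in 9 of the 10, beside 28.5% of all genes. The IRAK3 difference was the largest (4.23-fold lower, log2 difference -2.08 ± 0.49, adjusted p = 0.00797). TNFAIP3 was 3.68-fold lower, NFKBIZ 3.07-fold, NFKB2 2.99-fold, NFKBIA 2.92-fold, REL 2.39-fold, BCL3 2.37-fold and NFKB1 2.11-fold. RELB was the exception in both respects, with a log2 difference of 0.14 ± 0.30 (adjusted p = 0.746), and its ranges overlapped. For TNF the difference of -1.05 ± 1.20 did not pass (adjusted p = 0.518). The number called fell to 5 without TL-3d replicate 3, where NFKBIA, BCL3 and TNFAIP3 had adjusted p of 0.0596, 0.0861 and 0.0510 (edgeR). NFKBIA and BCL3 were also lost without TL-3h replicate 2 or TL-3d replicate 2, and BCL3 without TL-3h replicate 1. TNF passed when only the 6 libraries compared were fitted (adjusted p = 0.0416, edgeR).

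At 14 days none of the 10 genes was called against control, and 0% of all genes were (edgeR). At an unadjusted p under 0.05 stood 3 of the 10, TNF, REL and RELB, and 1538 of all genes. The DESeq2 test called 1 of the 10 (TNF) and 371 of all genes (2.39%). Of the 10, 2 were called without TL-14d replicate 1 (TNF and RELB), beside 4.74% of all genes. RELB had all TL-14d libraries above the controls, as had 6.03% of all genes, and REL had all below, as had 5.11%. The median log2 fold change of the 10 was 0.06, beside 0.02 over all genes. TL-14d replicate 2 had 28.1 times the mean of the other TL-14d libraries for TNF, 2.92 times for TNFAIP3, 2.27 times for NFKB2 and 2.13 times for RELB, but 0.977 times for REL and the same level as their mean, 85.4 CPM, for NFKBIZ. Its 8 neutrophil markers other than MMP9 summed to less than those of TL-14d replicate 3, whereas its macrophage sum of 468 CPM was the highest of the group, beside 103 and 303 CPM. The part of the macrophage markers in its levels was not tested. Between TL-14d and TL-3d none of the 10 was called, beside 2.24% of all genes. BCL3 alone had an unadjusted p under 0.05 there (log2 difference -1.10 ± 0.41, adjusted p = 0.152), and DESeq2 called none of the 10.

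Per transcript length, in FPKM (fragments scaled to transcript length and depth), the order of the genes changed between times. In control the highest mean levels were those of NFKBIZ (53.9 FPKM) and NFKBIA (52.5 FPKM), whose ranges overlapped. NFKB1 (27.2 FPKM) and NFKB2 (14.5 FPKM) followed, each without overlap with the gene before it. BCL3 (11.3 FPKM), IRAK3 (8.28 FPKM), REL (5.93 FPKM), TNFAIP3 (5.73 FPKM) and RELB (4.70 FPKM) came next, each overlapping its neighbour. TNF was lowest (0.234 FPKM), below every RELB value.

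In TL-3h NFKBIA stood alone at the top, with a mean of 149 FPKM and a lowest library of 126 FPKM, above the highest NFKBIZ value of 79.1 FPKM. NFKBIZ (70.0 FPKM), NFKB2 (63.8 FPKM), NFKB1 (44.2 FPKM) and BCL3 (41.8 FPKM) formed a run in which neighbours overlapped. TNFAIP3 (28.8 FPKM) lay above IRAK3 (21.2 FPKM) without overlap, and both were above RELB (7.99 FPKM) and REL (7.63 FPKM), which overlapped. TNF remained lowest at 1.47 FPKM. In TL-3d and TL-14d NFKBIA again had the highest mean. It did not overlap NFKBIZ in TL-3d, and it did in TL-14d.

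The Rel subunit genes differed in their shares of the 4 genes' summed FPKM, and a share moves whenever any of the 4 does. NFKB1 made up 46.3% to 55.6% in control and 27.2% to 44.7% in TL-3h. NFKB2 made up 24.7% to 33.6% in control and 42.5% to 58.3% in TL-3h, so that it had the larger share of this pair in TL-3h replicates 1 and 2. The RELB gene's share was 8.32% to 9.48% in control, 6.02% to 6.95% in TL-3h and 15.0% to 17.0% in TL-3d, with no overlap between the 3 groups. In TL-14d the RELB share was 10.7% to 15.7%, which overlapped TL-3d. REL had 10.6% to 12.2% in control, 3.96% to 7.54% in TL-3h, 5.11% to 7.16% in TL-3d and 4.45% to 8.33% in TL-14d. These shares are a description and were not tested.

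The ratio of RELB to REL in FPKM was 0.742, 0.751 and 0.894 in control. It was 0.921, 1.60 and 0.891 in TL-3h, where replicate 2, the library with low REL, stood apart. In TL-3d it was 2.94, 2.94 and 2.38, above all control and TL-3h libraries. In TL-14d it was 1.51, 3.53 and 1.71, above every control as well, including in replicate 1. The ratio of NFKB2 to NFKB1 was 0.446 to 0.725 in control, 0.951 to 2.14 in TL-3h, 0.909 to 1.14 in TL-3d and 0.633 to 1.09 in TL-14d.

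**Figure D3:**
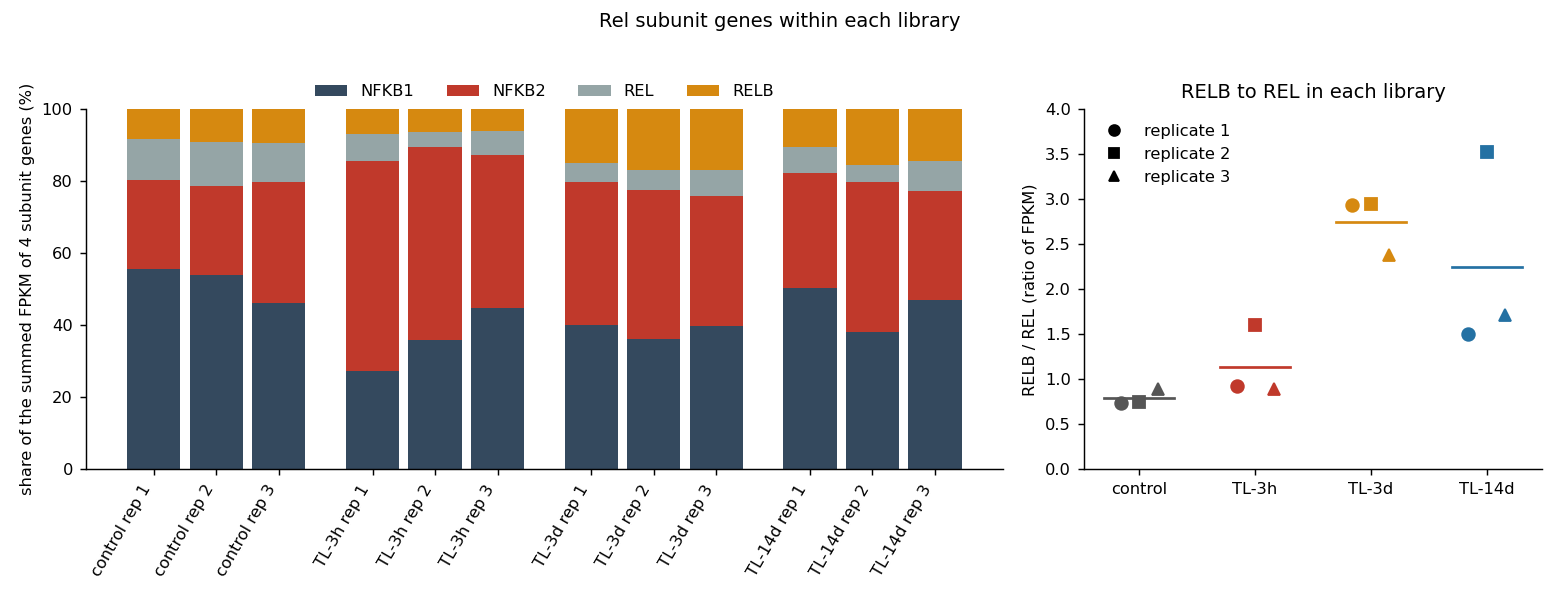
Left, share (%) of each Rel subunit gene in the summed FPKM of the 4 genes, 1 bar per library; right, ratio of RELB to REL in FPKM, with symbols for replicates and bars for the mean of 3 libraries. RELB holds 15.0% to 17.0% in TL-3d and 8.32% to 9.48% in control, and the ratio is 2.38 to 2.94 in TL-3d and 0.742 to 0.894 in control.

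The other genes of the pathway were followed through lists of 72 genes, of which 69 were matched. RELA, TRAF2 and SIGIRR are not analysed here. At 3 hours 40 of the 69 were higher and 7 lower than control, with a median log2 fold change of 0.86, beside 23.2% and 22.2% of all genes and a median of 0.02. At 3 days 13 were higher and 0 lower, with a median of 0.39, beside 10.6% and 7% of all genes. That number was 1 without control replicate 1, control replicate 2 or TL-3d replicate 2, 3 without TL-3d replicate 1, 8 without TL-3h replicate 1 and 18 without TL-14d replicate 1. The share of all genes called in these fits was 3.25%, 2.46%, 2.37%, 2.97%, 14.0% and 25.0% in the same order. At 14 days 0 were called. The DESeq2 test called 6, beside 2.39% of all genes, and 5 were called without TL-14d replicate 1, beside 4.74% of all genes. Between TL-3h and TL-3d, 24 were lower and 8 higher at 3 days, beside 19% and 18.4% of all genes.

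Of 3 other IκB genes, NFKBID, a nuclear IκB protein gene, was called higher at 3 hours, from 5.47 to 23.1 CPM (log2 fold change 2.08 ± 0.36, adjusted p = 0.00118). The cytoplasmic inhibitor genes NFKBIE (log2 fold change -0.13, adjusted p = 0.804) and NFKBIB (0.41, adjusted p = 0.140) did not pass. Among 11 genes of the IκB kinase complex and the kinases above it, 6 were higher and 2 lower. MAP3K8 changed 3.48-fold, the IKKα gene CHUK 2.10-fold and MAP3K14, the kinase of the noncanonical branch, 2.09-fold. TAB1, which binds the kinase TAK1, was 3.38-fold lower, from 25.9 to 7.66 CPM, and TAB2 was lower by a log2 fold change of -0.39, a call lost in 8 of the 12 refits that left out 1 library. At 3 days none of the 11 was called.

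Among 19 genes of receptors and adaptors, 12 were higher and 1 lower at 3 hours. BIRC3, a ubiquitin ligase of TNF receptor complexes, went from 62.3 to 273 CPM, and both TNF receptor genes, TNFRSF1B (4.18-fold) and TNFRSF1A (3.49-fold), were higher, as was the Toll-like receptor adaptor gene MYD88 (2.93-fold). TRAF3, which restrains the noncanonical branch, was 1.52-fold lower, with an adjusted p of 0.0630 without control replicate 1 (edgeR). At 3 days 4 were called, CD40 (4.83-fold), BIRC3 (3.30-fold), IRAK1 (2.02-fold) and MYD88 (1.60-fold). Leaving out 1 library, the calls of CD40 and BIRC3 were lost in 10 of 12 refits each and that of MYD88 in 4, while that of IRAK1 was lost in 0.

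Of 16 other genes of feedback inhibitors, 7 were higher and 3 lower at 3 hours. TNIP3, which encodes a partner of A20, went from 0.373 to 6.69 CPM. The RNA-destabilising factors ZFP36 (4.48-fold) and ZC3H12A (4.20-fold) rose as well, ZFP36 with an adjusted p of 0.0524 and 0.0569 without control replicate 3 and TL-3h replicate 1 (edgeR). TNIP2 was higher by a log2 fold change of 0.72 (adjusted p = 0.0136, and 0.0601 and 0.0760 without control replicate 2 and TL-3h replicate 2, edgeR), and TNIP1, at 0.47, did not pass (adjusted p = 0.116). NLRC5, known mainly as an activator of MHC class I genes, was 3.95-fold lower, and COMMD1 and OTULIN were lower by log2 fold changes of -0.84 and -0.40, the latter lost without control replicate 1 (adjusted p = 0.0555, edgeR). At 3 days RNF11 was the 1 gene called, with a log2 fold change of 0.73, lost in 8 of 12 such refits.

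Of 20 target genes, 14 were higher and 1 lower at 3 hours. Control levels of IL6 were near the floor, at 0.117 ± 0.143 CPM (SD, n = 3), and its TL-3h level was 382 ± 120 CPM. CXCL8, a chemokine for neutrophils, went from 2.22 to 1995 CPM, the monocyte chemokine CCL2 from 0.940 to 431 CPM and the cytokine IL1B from 1.63 to 391 CPM. CCL20 was lower, from 0.480 CPM to 0.0783 CPM, where no TL-3h library had more than 3 counts, and its call was lost without control replicate 2, TL-3h replicate 2 or TL-3h replicate 3. At 3 days 8 were called higher, among them IL6 (8.17 CPM), CCL2 (70.7 CPM), PTGS2, the inducible cyclooxygenase gene (35.0 CPM), and CD83, a marker of mature dendritic cells (16.3 CPM). Their calls were lost in 8, 3, 4 and 3 of the 12 refits in that order.

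**Figure D4:**
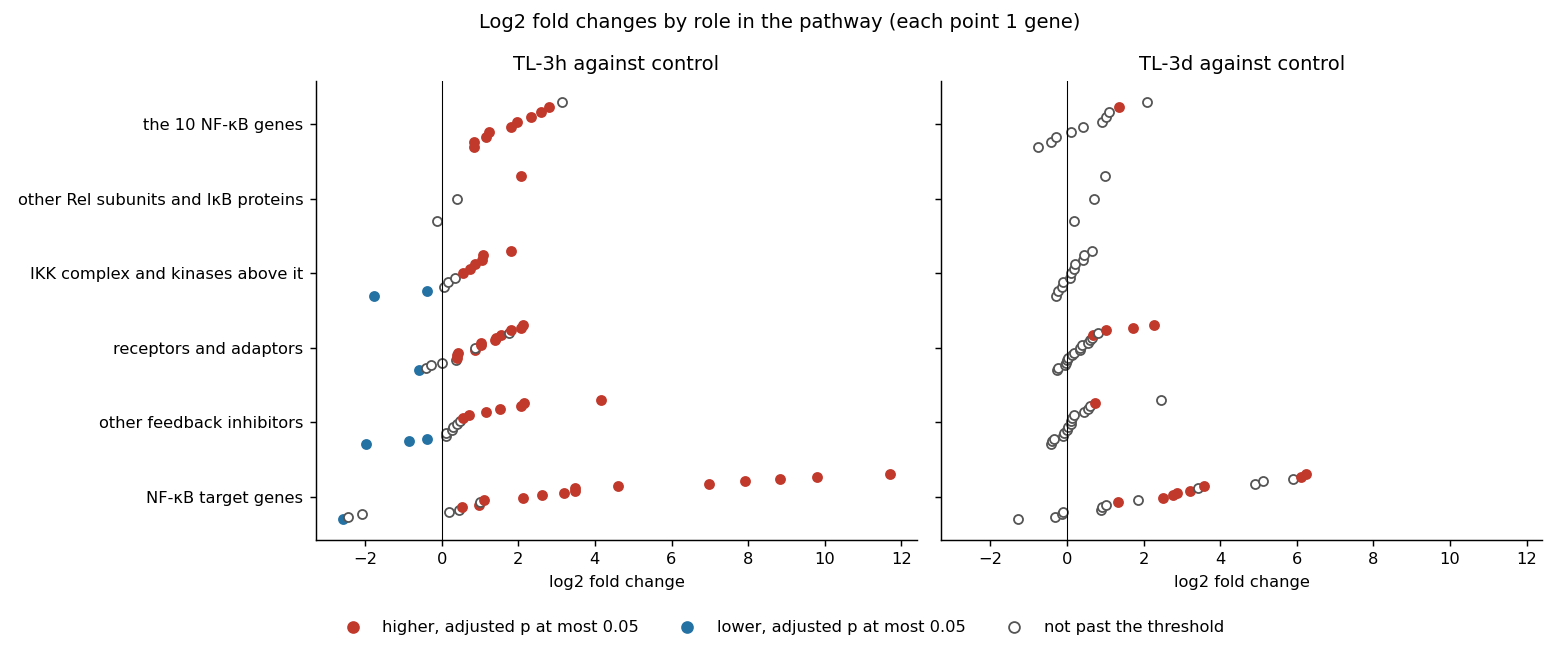
Log2 fold change (x axis, the same in both panels) of each gene at 3 hours and at 3 days against control, by role in the pathway (rows); red and blue points are higher and lower at an adjusted p of at most 0.05, and open points did not pass. At 3 hours 9 of the 10 genes and 40 of the 69 other pathway genes are red and 7 are blue, and at 3 days 1 and 13 are red and none is blue.

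Markers of cell types were summed in the same libraries, and the lists did not share 1 time course. All 9 listed neutrophil markers were detected, and their summed level was 6.48 to 108 CPM in control, 1295 to 3450 CPM in TL-3h, 301 to 979 CPM in TL-3d and 5.01 to 2077 CPM in TL-14d, with 8 of the 9 called higher at 3 hours and 2 at 3 days. MMP9 made up 95.9% of the highest TL-14d sum. Without MMP9 the sums were 6.33 to 106 CPM, 1256 to 3362 CPM, 168 to 858 CPM and 4.77 to 111 CPM in the same order of groups. The sum of 8 macrophage markers was 81.4 to 631 CPM, 674 to 1066 CPM, 1366 to 2172 CPM and 103 to 468 CPM in the same order, with 3 and 5 called. Endothelial markers summed to 81.1 to 292 CPM in control and 622 to 1225 CPM in TL-3h, with 2 of 6, PECAM1 and CDH5, called higher at 3 hours. Their sums were 320 to 594 CPM in TL-3d and 106 to 316 CPM in TL-14d, with 0 called at either time. The means in control and TL-3h were 55.8 and 716 CPM for PECAM1, which leukocytes and platelets also express, 14.9 and 82.0 CPM for CDH5, 42.5 and 77.8 CPM for VWF, 32.8 and 18.6 CPM for KDR, 19.2 and 16.8 CPM for EMCN, and 8.09 and 6.35 CPM for TEK. PECAM1 made up 73.7% to 79.3% of the sum in TL-3h. The sum of 5 B cell markers, of 6 listed, was 1.80 to 4.09 CPM in control, 4.57 to 12.9 CPM in TL-3h, 28.8 to 33.4 CPM in TL-3d and 2.45 to 9.51 CPM in TL-14d. MS4A1 and CD22 were called higher at 3 hours and at 3 days. PAX5 was called lower at 3 hours, with means of 0.698 CPM in control and 0.104 CPM in TL-3h. CD22 carried most of the 3-day sum, with 20.7 to 24.7 CPM in the TL-3d libraries. T cell markers summed to 11.6 to 29.9 CPM in control, 9.91 to 18.3 CPM in TL-3h and 8.96 to 22.4 CPM in TL-3d, with 1 of 7 called lower at 3 hours. Fibroblast markers summed to 9794 to 57873 CPM in control and 80443 to 96039 CPM in TL-3h, with 0 of 6 called. In TL-3d the fibroblast sums were 1005, 8342 and 45335 CPM, all below TL-3h and far apart from each other, and in TL-14d 8030 to 40307 CPM. Epithelial markers summed to 5925 to 12804 CPM in control, 5230 to 9595 CPM in TL-3h, 9086 to 21986 CPM in TL-3d and 12874 to 16969 CPM in TL-14d. Of these 9, 1 was called higher and 2 lower at 3 hours, and 1 higher at 3 days. None of these markers was at 0 in all libraries of a group. Their part in the levels of the 10 genes was not tested.

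Scaling bore on every comparison with TL-3h. TMM factors were 0.768 to 0.783 in TL-3h and 1.03 to 1.13 elsewhere. With library size alone the 3-hour median over all genes was -0.47 on the log2 scale, and called genes were higher in 25.0% of cases instead of 51.0%. The median of the 10 was then 1.41, which lay 1.89 above that of all genes. In that scaling REL, RELB and NFKBIZ kept a positive fold change but did not pass (adjusted p = 0.260, 0.0668 and 0.294, edgeR), and 6 of the 10 were called. For TL-3d against TL-3h, library size alone gave a median of 0.43 over all genes, and 80.4% of called genes were higher instead of 49.2%. The median of the 10 was then -0.92, and its difference from that of all genes was -1.35 in both scalings. In that scaling 6 of the 10 were called lower, and NFKBIA and BCL3 did not pass (adjusted p = 0.0609 and 0.129, edgeR).

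Over the 12 libraries, NFKB2 and TNFAIP3 followed the mean of the other genes most closely, with Pearson's r of 0.976 and 0.977 on z-scored log2 CPM. NFKBIA (0.944), BCL3 (0.906), NFKB1 (0.890) and IRAK3 (0.859) came next. REL (0.681), NFKBIZ (0.597), RELB (0.565) and TNF (0.526) were least like the rest. Outside the 10, the genes most like their mean were HSPA8 (r = 0.989), ZC3H12A and MTPN (both 0.988), TXNRD1, VDAC2 and PFKFB3 (each 0.987), and ZMPSTE24 and CCT2 (both 0.986). HSPA8 encodes a chaperone and CCT2 a chaperonin subunit, PFKFB3 a regulator of glycolysis and TXNRD1 a thioredoxin reductase. The points share the 4 groups, and TL-3h sets them apart, so these values are a description.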

How the data were processed

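RNA was sequenced from 12 libraries (TruSeq Stranded mRNA, 150 bp paired-end reads). The authors mapped the reads to OryCun2.0 with STAR 2.6.0c and made gene values in GeneData Profiler Genome. Estimated counts, as deposited, were not scaled by depth, and 23.4% of those per gene were fractional. The authors also deposited FPKM values, per gene and per transcript. Whether counting used strand was not given in the sources used here.

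The estimated counts were rounded and tested with edgeR 4.0.16 (R 4.3.3): TMM, filterByExpr with a minimum count of 10 and total of 15, quasi-likelihood test, 1 factor of 4 groups, Benjamini-Hochberg adjustment. This fit was also run on simulated counts, with an outcome that is not reported here. Standard errors were the log2 fold change divided by the square root of F. FPKM served to compare levels between genes. DESeq2 1.42.0, other scalings and filters, fewer libraries and a replicate block were alternatives.

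The members and lists were chosen with earlier results of these data known. From each pathway list, per comparison with the control, the 4 called genes with the largest absolute log2 fold change were named, plus NFKBIE, NFKBIB, NFKBID and TNIP1 to TNIP3 throughout, and the 8 genes most like the members. Of 72 listed pathway genes, 69 matched by name or gene ID. The genes called lower at 3 hours beyond those 4, and the libraries that stood apart, were singled out after their values were seen. Counting intervals and floors cover counting error only. No 2 libraries of a group agreed within sampling noise. MicroShunt libraries were not analysed here.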

Additional observations from a re-analysis of the deposited data

Results flagged for a closer look

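In 8 of the 10 genes the level differed between 3 days and 3 hours by a test of the difference itself (edgeR, TL-3d against TL-3h, n = 3 per group, adjusted over all genes). All 8 were lower at 3 days, beside 19% of all genes. The log2 differences were -1.08 for NFKB1, -1.58 for NFKB2, -1.25 for REL, -1.55 for NFKBIA, -1.62 for NFKBIZ, -1.25 for BCL3, -1.88 for TNFAIP3 and -2.08 for IRAK3. All 3 TL-3d libraries were below all 3 TL-3h libraries in each of these 8, a pattern seen in 28.5% of all genes. For RELB the difference was 0.14 (adjusted p = 0.746) and for TNF -1.05 (adjusted p = 0.518). No outlier test was applied to these groups of 3 libraries, and the libraries that stood apart were singled out after their values were seen.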

How the results depend on the processing

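Limits come first. With 3 libraries per group, single libraries decided calls at 3 and 14 days, and TNF had 7 to 32 counts in each control library. Of 200 alternative values of the 10 genes at 3 hours, 186 kept direction and side of the threshold, 9 lost the call and 5 gained it, and for TL-3d against TL-3h these numbers were 188, 11 and 1. Leaving out 1 library at a time, 7 to 10 of the 10 genes were called at 3 hours, 0 to 4 at 3 days, 0 to 2 at 14 days and 5 to 8 for TL-3d against TL-3h, with 0 for TL-14d against TL-3d. The same refits called 38 to 48 pathway genes at 3 hours, 1 to 18 at 3 days and 0 to 5 at 14 days. Of all genes they called 5280 to 7271 at 3 hours, 359 to 3778 at 3 days, 0 to 716 at 14 days, 3954 to 6231 for TL-3d against TL-3h and 0 to 584 for TL-14d against TL-3d. The lowest 3-day count came without TL-3d replicate 2, the highest 14-day count without TL-14d replicate 1, and without TL-14d replicate 2 the 14-day count was 0.

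With the DESeq2 test 4 of the 10 were called at 3 days and 1 at 14 days, 6 pathway genes at 14 days, and 4439, 371 and 1829 of all genes at 3 days, 14 days and for TL-14d against TL-3d (edgeR 2608, 0 and 332). With at least 1 CPM in 3 libraries 2 of the 10 were called at 3 days, beside 2611 of 13650 genes. With only the 6 libraries compared, 3 of the 10 and 21 pathway genes were called at 3 days, beside 3263 of 14417 genes. That setting called 15 of all genes for TL-14d against TL-3d. A fit chosen after seeing the data left out control replicate 3 and TL-14d replicate 1, the latter being the library whose removal raised the 14-day count most. That fit called 6 of the 10, 22 pathway genes and 3859 of 15056 genes at 3 days. At 14 days it called 1 of the 10, 8 pathway genes and 999 of all genes.

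Same-numbered libraries correlated above 0.1 in 8 of 18 pairs (r from -0.147 to 0.481), and r ran from -0.525 to 0.391 in differently numbered pairs. These values do not settle whether the numbers pair the libraries. No pairing was stated, so the main fit used none. With the replicate block 10 of the 10 were called at 3 hours, 2 at 3 days (RELB and NFKBIZ), 0 at 14 days and 7 for TL-3d against TL-3h. Of all 14835 genes the block called 6946, 2719, 0 and 5831 in the same order.

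Signs turned where values were near 0 or rested on 1 library, and for NFKBIB and TNIP1 with the scaling. NFKB1 for TL-14d against TL-3d (0.0019) was -0.00353 with DESeq2 size factors, -0.00377 with the DESeq2 test, -0.00123 without a filter, -0.00173 with 6 libraries and -0.00144 with the block, and -0.15 to 0.11 with 1 library left out. At 14 days BCL3 (-0.01) was 0.00341 with library size alone, 0.00352 with 6 libraries, 0.0432 with the block and 0.76 in the fit of 10 libraries, and NFKBIA (0.02) was -0.0464 with the block. In the fit of 10 libraries IRAK3 was 0.73 at 3 days (adjusted p = 0.00623, edgeR) and 0.35 at 14 days. With library size alone NFKBIB was -0.10 and TNIP1 -0.0275 at 3 hours. With 1 library left out, values at 3 days ranged from -0.0142 to 0.23 for NFKB1 and -0.63 to 0.73 for IRAK3, and at 14 days from -0.0546 to 0.18 for NFKB1, -0.40 to 0.57 for NFKBIA, -0.29 to 0.60 for BCL3, -0.51 to 0.74 for TNFAIP3 and -1.17 to 0.19 for IRAK3. TNF for TL-14d against TL-3d ranged from -0.93 to 2.96. The cause of these changes was not tested, beyond the libraries and genes each fit left out.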
